A study of Mus musculus with 18 samples.

Results

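The mitochondrial respiratory chain genes were examined in dorsal root ganglia of the mouse, the clusters of sensory neuron cell bodies and their glia beside the spinal cord. The set was defined by symbol alone: every gene of the count table whose symbol begins with Nduf, Uqcr or Atp5, those beginning with Cox4 to Cox8, and Sdha, Sdhb, Sdhc and Sdhd. That gave 91 of 15730 genes, and all 91 passed the filter on low counts. RNA was sequenced from the ganglia that feed the sciatic nerve of C57BL/6 mice aged 6 to 8 weeks, taken 24 h after surgery, with 3 libraries in each of 6 groups and 2 mice pooled per library. LAM had a laminectomy, the removal of vertebral bone that exposes the cord, and DCA had an injury of the dorsal columns of the cord, the tract that holds the central branch of the sensory axons. SNA_Saline had a sciatic nerve injury, which damages the peripheral branch, in the presence of saline, and Sham_Saline had sham surgery with saline. SNA_NAC had the nerve injury with N-acetyl-cysteine, an antioxidant, at 30 mM, and Sham_H2O2 had sham surgery with hydrogen peroxide, an oxidant, at 13 mM. The ganglia were whole tissue, so fewer cells of a type and less RNA per cell cannot be told apart.

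The respiratory chain passes electrons from NADH and succinate to oxygen through complexes I to IV of the inner mitochondrial membrane, and complex V, the ATP synthase, uses the resulting proton gradient to make ATP. Most subunits are encoded in the nucleus and imported, and a few are encoded by mitochondrial DNA. Sensory neurons rely on this ATP along very long axons, and complexes I and III are also sources of reactive oxygen species. By known role the 91 genes comprised 7 core and 29 supernumerary subunits of complex I, 7 complex I assembly factors named Ndufaf, 4 genes of complex II, 8 of complex III, 12 of complex IV, 15 of complex V, 6 tissue-restricted isoforms and 3 others. The subunits of complexes I to V outside the tissue isoforms numbered 75 and are called the ubiquitous subunits here.

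These transcripts are short, with a median principal transcript of 865 bases against 2892 bases over all genes. Their GC share ranged from 39.5% to 61.1% around a median of 51.0%, against 50.2% over all genes. The last 90 coding bases of 4 members are shown, because this property moved with the differences between libraries, with G and C in capitals. Sequences come from the GENCODE M21 annotation on GRCm38. Ndufb7, a complex I subunit at chr8:83566819-83571562 on the plus strand, and Uqcr11, the small complex III subunit at chr10:80404169-80406745 on the minus strand, vary widely between libraries. Ndufa9, a complex I subunit at chr6:126822022-126849112 on the minus strand, is among the steadiest. Cox5a, the 5A subunit of cytochrome c oxidase at chr9:57521328-57531779 on the plus strand, moves against the GC-rich members. Positions span the first to the last coding base.
Ndufb7: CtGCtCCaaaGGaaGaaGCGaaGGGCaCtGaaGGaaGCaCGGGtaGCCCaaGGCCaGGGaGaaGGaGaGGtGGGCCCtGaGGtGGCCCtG
Uqcr11: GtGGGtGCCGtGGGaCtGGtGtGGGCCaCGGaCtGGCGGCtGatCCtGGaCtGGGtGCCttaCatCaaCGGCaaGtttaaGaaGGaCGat
Ndufa9: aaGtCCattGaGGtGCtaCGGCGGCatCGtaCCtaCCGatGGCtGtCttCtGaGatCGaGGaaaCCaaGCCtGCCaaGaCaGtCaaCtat
Cox5a: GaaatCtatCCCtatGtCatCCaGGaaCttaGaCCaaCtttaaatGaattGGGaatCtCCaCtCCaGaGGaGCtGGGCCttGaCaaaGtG
G or C makes up 57 of these 90 bases in Ndufb7, 54 in Uqcr11, 47 in Ndufa9 and 40 in Cox5a. Over the whole coding sequence the shares were 61.1%, 60.7%, 50.3% and 52.3%. Over the principal transcript, whose GC share is the one compared with the fold changes below, they were 59.7%, 58.9%, 48.0% and 49.0%. Cox5a is thus below Ndufa9 in the 90 bases shown but slightly above it on both wider measures.

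The promoters of 75 of the 91 members were found in a RefSeq table on GRCm38.p6. Nuclear respiratory factor 1, NRF1, is a transcription factor known to bind promoters of respiratory chain genes. Its site, GCGCA and then GCGC with any base between them, searched on both strands of the 250 bases before the start, was present in 14 of the 75 genes, or 18.7%, against 4.23% of 27025 genes. The ETS-family core CCGGAAG, bound by GABP, was in 17.3% of the members against 7.83% of all genes. The YY1 core AAGATGG was in 2.67% against 5.18%, and the E-box CAGCTG in 8% against 14.7%. The 27025 genes were all those with a RefSeq promoter and were not limited to expressed genes or matched for GC share. Of the members' 81 promoter windows, 44 had a start that matched the 5 prime end of a GENCODE transcript. That of Cox6a1 did, and those of Sdhd and Atp5h did not. Stretches with the NRF1 match in capitals are shown for a subunit each of complexes II, IV and V, written along the gene's strand.
Sdhd, chr9:50603899-50603948, minus strand: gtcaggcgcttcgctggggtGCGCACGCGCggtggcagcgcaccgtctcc
Cox6a1, chr5:115349046-115349140, minus strand: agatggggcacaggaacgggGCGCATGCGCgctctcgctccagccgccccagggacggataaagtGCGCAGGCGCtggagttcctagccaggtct
Atp5h, chr11:115420031-115420080, minus strand: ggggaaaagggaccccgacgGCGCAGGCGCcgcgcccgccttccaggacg
A match is a run of letters and not a measured binding site.

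Library totals ran from 6472476 to 42435331 counts. Sensory neuron markers summed to between 8051 and 13982 CPM (counts scaled to the library total after TMM normalization), and satellite glia and Schwann cell markers were present in every library. The Sham_Saline libraries stood apart from one another. Replicate 1 had the steepest rise of level with transcript length of the 18 libraries, with a slope of 0.15. Replicate 2 had the steepest rise with GC share, with a slope of 0.43, and the highest skeletal muscle marker sum, 1945 CPM against 844.9 CPM in the next library. All tests that use Sham_Saline are therefore also given without one of these libraries.

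Respiratory chain transcripts were abundant, and their median level differed between the complexes, with wide overlap of single genes. On the scale of CPM per kilobase of principal transcript, averaged over the 18 libraries, the class median was 363 for complex IV, 262 for complex V, 118 for complex II, 109 for complex III, 91.7 for supernumerary and 89.8 for core subunits of complex I. The assembly factors had a median level of 32.0 on this scale, and the tissue isoforms of 1.85. The highest level was that of Ndufa4, a complex IV subunit once assigned to complex I, at 1031 CPM per kilobase. Next came Atp5b, the catalytic beta subunit of the ATP synthase, at 741, Uqcrh, the hinge protein of complex III, at 710, and Atp5g3, a gene of the membrane c-ring, at 633. The lengths matter for this order, since the FPKM values deposited by the authors imply a length 7.4 times the principal transcript for Ndufb7 and 7.2 times for Cox6c. Cox6c accordingly ranked 52 of 91 by FPKM, while its level per kilobase was 427. The order of the classes moved too, since the median FPKM was 94.8 for complex III and 74.8 for complex II. Genes of complex III ranged from 26.0 to 710 CPM per kilobase and those of complex V from 29.9 to 741. The low ends were Uqcrq and Atp5g1, with principal transcripts of 1521 and 4715 bases, and they depend on the transcript chosen.

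**Figure D1:**
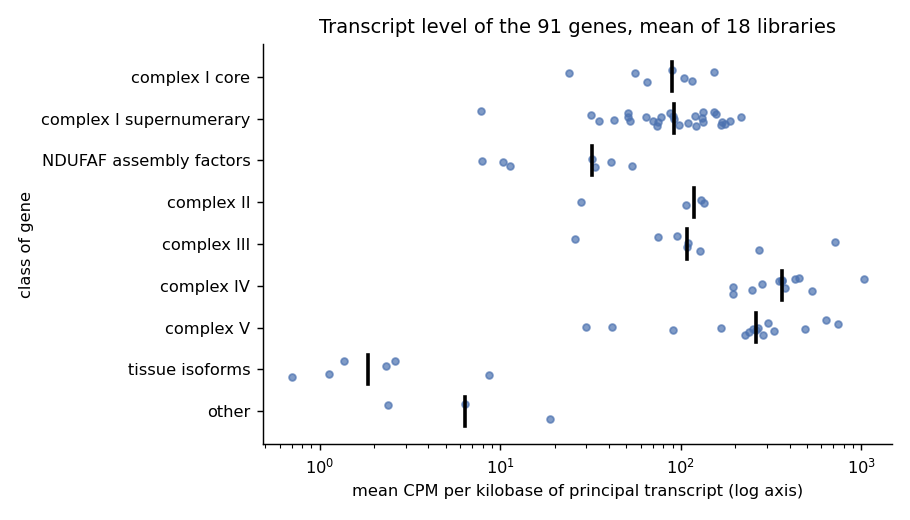
Mean level of each of the 91 genes over 18 libraries, in CPM per kilobase of principal transcript on a log axis, by class of gene. Points are genes and bars are class medians, which run from 1.85 for the tissue isoforms to 363 for complex IV.

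The members differed greatly in how steady they were. The 6 steadiest ubiquitous subunits, Sdha, Ndufa9, Atp5b, Atp5a1, Uqcrc2 and Ndufa10, had coefficients of variation of 4.70% to 6.59% over the 18 libraries and GC shares of 44.4% to 52.1%. Sdha, the flavoprotein of succinate dehydrogenase, stayed between 351 and 407 CPM, and Atp5b between 1303 and 1580 CPM. The 6 most variable, Atp5d, Ndufa13, Ndufa11, Ndufs7, Uqcr11 and Ndufb7, had coefficients of 53.5% to 83.1% and GC shares of 58.2% to 61.1%. In all, 8 of the 75 ubiquitous subunits had a GC share that high. The other 2, Cox8a at 58.5% and Cox6a1 at 58.8%, varied less, with coefficients of 13.4% and 18.6%.

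Ndufb7 showed this variation most plainly. Its level was 8.80, 13.0 and 13.2 CPM in LAM replicates 1 to 3, and 22.7, 12.6 and 51.3 CPM in DCA. It was 14.9, 82.5 and 32.2 CPM in Sham_Saline and 18, 23.7 and 11.4 CPM in Sham_H2O2. In the nerve-injured groups it was 15.0, 9.40 and 27.8 CPM with saline and 18.6, 8.82 and 13.4 CPM with N-acetyl-cysteine. Sham_Saline replicate 2 was the highest library and DCA replicate 3 the next, while replicate 1 of Sham_Saline lay inside the range of SNA_Saline. Ndufs7, the core subunit that carries the last iron-sulphur cluster before ubiquinone, was likewise highest in those libraries, at 60.6 and 39.1 CPM, and lowest in SNA_NAC replicate 2 at 7.82 CPM.

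No respiratory chain gene passed the test after sciatic nerve injury. In SNA_Saline against Sham_Saline, 0 of 91 members passed an adjusted p of 0.05 in edgeR's quasi-likelihood test with Benjamini-Hochberg adjustment over all 15730 genes, while 2.73% of all genes did. At an unadjusted p under 0.05 there were 11 members, or fewer in proportion than the 22.5% of all genes. The median log2 fold change was -0.08 over the members and -0.03 over all genes, with 55 members lower and 36 higher, where 53.5% of all genes were lower. The groups did not overlap for 4 members, or 4.40%, against 19.1% of all genes. By class, 17 of 29 supernumerary and 4 of 7 core subunits of complex I had lower values, as did 4 of 8 genes of complex III, 6 of 12 of complex IV and 10 of 15 of complex V.

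The members nearest the threshold were few. Atp5sl, now named Dmac2, a factor in complex I assembly, was 14.4, 25 and 17.8 CPM in Sham_Saline and 12.4, 10.7 and 13.6 CPM in SNA_Saline. The groups did not overlap, and the log2 fold change was -0.64 (SE 0.19, edgeR adjusted p = 0.094). DESeq2 and the fit with offsets for GC share and length each called this gene and no other member, while they called 5.49% and 7.98% of all genes. Cox5a was 234, 258 and 326 CPM in Sham_Saline and 384, 383 and 335 CPM in SNA_Saline, a log2 difference of 0.43 (SE 0.17, edgeR adjusted p = 0.170) with no overlap. Ndufaf1 and Ndufaf4, assembly factors of complex I, were also higher in every SNA_Saline library than in any Sham_Saline library, with log2 values of 0.34 and 0.41 and edgeR adjusted p-values of 0.182 and 0.169. With the offsets these log2 values were 0.18 and 0.16, and that of Cox5a was 0.39. Among the larger differences, Ndufb7 had a log2 fold change of -1.30 (SE 0.56) and Uqcr11 of -1.22 (SE 0.53), and the groups overlapped in both genes. With the offsets these became -0.67 (SE 0.30) and -0.62 (SE 0.27).

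Leaving out Sham_Saline replicate 1 turned 0 called members into 18, all lower after injury, which is 19.8% of the members against 16.2% of all genes in the same comparison. Of these 18, 15 had a GC share above the members' median, and Atp5sl, Cox4i1, Ndufb7, Ndufs7 and Uqcr11 were among them. Leaving out replicate 2 instead gave 0 called members, with 1.48% of all genes called and a median member log2 fold change of 0.04.

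After injury of the central branch, in DCA against LAM, 0 of 91 members passed the edgeR test, and 0% of all genes did. The median was 0.07 over the members and -0.00 over all genes, and 58 members had higher and 33 lower values, where 50.6% of all genes were lower. The groups did not overlap for 21 members, 6 higher and 15 lower, or 23.1%, against 21.7% of all genes. Of the 91 members, 5 had an unadjusted p under 0.05, against 5.04% of all genes, and DESeq2 called 0 members and 0.0127% of all genes. Ndufs7 was 10.8, 13.8 and 11.8 CPM in LAM and 18.9, 15.2 and 39.1 CPM in DCA, so that the groups did not overlap, with a log2 fold change of 1.01 (SE 0.51, edgeR adjusted p = 0.624). Atp5d, the delta subunit in the rotor stalk of the ATP synthase, was 42.6, 63.9 and 62.2 CPM in LAM and 91, 64.6 and 144 CPM in DCA, a log2 fold change of 0.82 (SE 0.41, edgeR adjusted p = 0.624). In both genes DCA replicate 3 was the highest library of the pair of groups, and with the offsets the log2 fold changes were 0.50 (SE 0.24) and 0.33 (SE 0.14). Cox5a had the opposite sign, at -0.28 (SE 0.17), and each of its DCA libraries lay below each LAM library.

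The direct test of whether the change after nerve injury differed from that after cord injury called 0 of 91 members and 1.61% of all genes in edgeR, with 28 members at an unadjusted p under 0.05, against 31.4% of all genes. Their median was -0.15, with 55 lower, where 51.3% of all genes were lower. DESeq2 called 10 members and 11% of all genes. Ndufaf1 had the smallest adjusted p among members (edgeR, 0.081), with a log2 difference between the changes of 0.67 (SE 0.20). Cox5a, Ndufaf1 and Ndufaf4 were each higher without overlap after nerve injury and lower without overlap after cord injury. The difference between the changes had an edgeR adjusted p of 0.090 for Cox5a and 0.088 for Ndufaf4. Ndufb7 had -2.61 (SE 0.80, edgeR adjusted p = 0.084). With the offsets the log2 difference was 0.42 for Ndufaf1, 0.24 for Ndufaf4 and -1.43 for Ndufb7. With the GC and length offsets 3 members and 5.73% of all genes passed, Cox5a and Cox6a1 with a higher and Atp5sl with a lower value. With the offsets and a block for replicate number, the sequencing lane, 0 passed, and no share of all genes is given for that fit. Without Sham_Saline replicate 1 the count was 33, or 36.3%, against 29.2% of all genes, and without replicate 2 it was 0, against 0.566%.

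**Figure D2:**
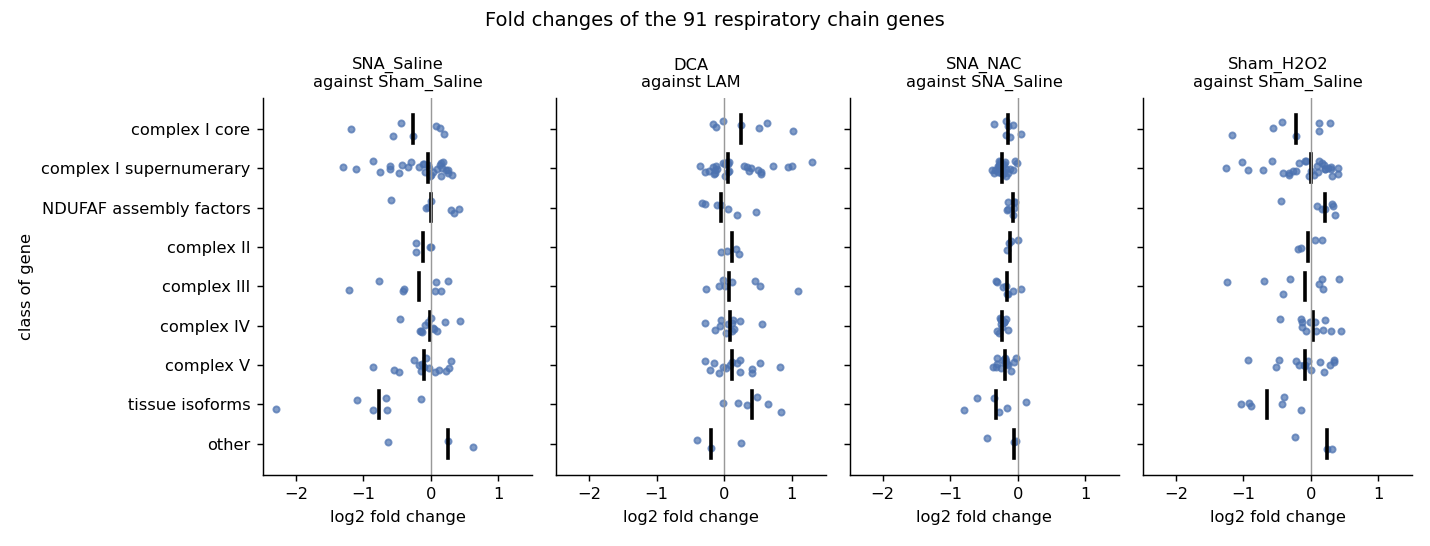
Log2 fold change (edgeR) of each of the 91 genes by class in 4 comparisons; points are genes and bars are class medians. No point passed an adjusted p of 0.05, and the panel of SNA_NAC against SNA_Saline has 87 of its 91 points below 0.

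N-acetyl-cysteine gave the most uniform picture, though no gene passed. In SNA_NAC against SNA_Saline, 0 of 91 members and 0% of all genes passed the edgeR test, and 0 members had an unadjusted p under 0.05, against 2% of all genes. DESeq2 also called 0 members and 0% of all genes. Yet 87 of the 91 members had lower values with the drug, against 50.6% of all genes, and the median log2 fold change was -0.20 against -0.00. The lower members included 29 of 29 supernumerary subunits of complex I, 12 of 12 genes of complex IV, 15 of 15 of complex V and 7 of 7 assembly factors. In 20 members every SNA_NAC library lay below every SNA_Saline library and in 0 members above, whereas 5.63% of all genes were lower without overlap.

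Atp5e, the epsilon subunit of the ATP synthase, was 104, 78.8 and 121 CPM in SNA_Saline and 86.9, 77.7 and 70.9 CPM in SNA_NAC, with a log2 fold change of -0.37 (SE 0.23). The groups overlapped by 1 library. Sdhd, the membrane anchor of complex II, was 165, 153 and 161 CPM and then 150, 141 and 140 CPM, a log2 fold change of -0.15 (SE 0.11) with no overlap. Cox6a1, the ubiquitous form of subunit 6A, was 211, 186 and 234 CPM and then 195, 158 and 157 CPM, a log2 fold change of -0.31 (SE 0.20). The edgeR adjusted p-value of each of the 3 was 1.00. With the offsets the log2 fold changes were -0.24 for Atp5e, -0.07 for Sdhd and -0.17 for Cox6a1. Sdha was at 0.00 (SE 0.08) and Atp5b at -0.03 (SE 0.09).

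Transcript length moved with this comparison. Over all genes, the median log2 fold change ran from -0.14 in the quintile with the shortest transcripts, 36 to 1598 bases, to 0.14 in the quintile with the longest, and 71 of the members were in the shortest quintile, where their median was -0.22. Among the 75 ubiquitous subunits the correlation of fold change with log2 length was 0.69, a description over genes that share 6 libraries. With offsets for GC share and length the members' median became -0.09, with 78 of 91 lower and 55% of all genes lower. Mitochondrial ribosomal protein genes showed a like pattern, with 73 of 76 lower, a median of -0.17 and a median of -0.10 with the offsets. Other related lists, described below, were mixed. Further assembly factors had 28 of 35 lower (median -0.09), and electron carriers, inhibitors and uncouplers 9 of 10 (-0.11). Glycolytic genes had 14 of 17 lower (-0.03), tricarboxylic acid cycle genes 10 of 16 (-0.03) and mitochondrial DNA genes 6 of 11 (-0.04). Of the regulators 11 of 13 were higher, with a median of 0.09.

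No member passed the test with hydrogen peroxide in sham-operated mice. In Sham_H2O2 against Sham_Saline, 0 of 91 members and 0% of all genes passed the edgeR test, DESeq2 called 0 members and 0.0254% of all genes, and 11 members had an unadjusted p under 0.05, against 9.15% of all genes. No member separated the groups without overlap, against 5.43% of all genes. The median was -0.04, with 47 members lower (52.5% of all genes) and 44 higher, and it was -0.20 without Sham_Saline replicate 1 and 0.10 without replicate 2. Atp5d was 61.6, 229 and 122 CPM in Sham_Saline and 74.5, 96.6 and 43.9 CPM in Sham_H2O2, with a log2 fold change of -0.93 (SE 0.41, edgeR adjusted p = 0.449), which became -0.31 (SE 0.14) with the offsets. Cox4i1, the ubiquitous form of subunit 4, was 200, 502 and 386 CPM and then 257, 303 and 233 CPM. In both genes replicate 1 of Sham_Saline was the lowest of its group, within the range of Sham_H2O2 for Atp5d and below it for Cox4i1.

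The control groups of the nerve and cord experiments were also compared. In Sham_Saline against LAM, 0 of 91 members and 0.0699% of all genes passed the edgeR test, and DESeq2 called 5 members, Atp5s, Cox5a, Ndufaf1, Ndufb2 and Ndufb7, and 7.25% of all genes. At an unadjusted p under 0.05 there were 34 members, against 30.3% of all genes, and 18 members, or 19.8%, separated the groups, against 30.6% of all genes. The members' median was 0.04, with 43 lower, where 47.7% of all genes were lower. Without Sham_Saline replicate 1 there were 41 called members, or 45.1%, against 31.8% of all genes, and 30 of the 36 higher ones had a GC share above the members' median. Without replicate 2 there were 0, against 0.0381% of all genes. The comparisons of SNA_Saline, Sham_H2O2 and LAM with Sham_Saline share the same 3 libraries, so their values are given side by side and not as support for one another.

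GC share moved with the comparisons, more weakly in that of N-acetyl-cysteine. The 37 ubiquitous subunits with a GC share above 51.0% had a median log2 fold change of -0.29 in SNA_Saline against Sham_Saline, with 31 lower, and the other 38 had 0.07, with 25 higher. In DCA against LAM the medians were 0.34 above and -0.05 at or below that GC share. In Sham_H2O2 against Sham_Saline they were -0.23 and 0.16. In SNA_NAC against SNA_Saline they were -0.22 and -0.19, and the correlation of fold change with GC share over the 75 subunits was -0.31, against -0.72 in SNA_Saline against Sham_Saline. All genes followed the same line: from the lowest to the highest quintile of GC share, the median ran from 0.21 to -0.47 in SNA_Saline against Sham_Saline and from -0.18 to 0.37 in DCA against LAM. Over the 75 subunits, the value predicted from GC share and length by the fit to all genes correlated with the observed fold change at 0.75 and 0.74 in these comparisons, across genes that share libraries. That fit used these same libraries and included the subunits. Beyond the fits with offsets, the part of GC share and length in the differences was not tested.

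**Figure D3:**
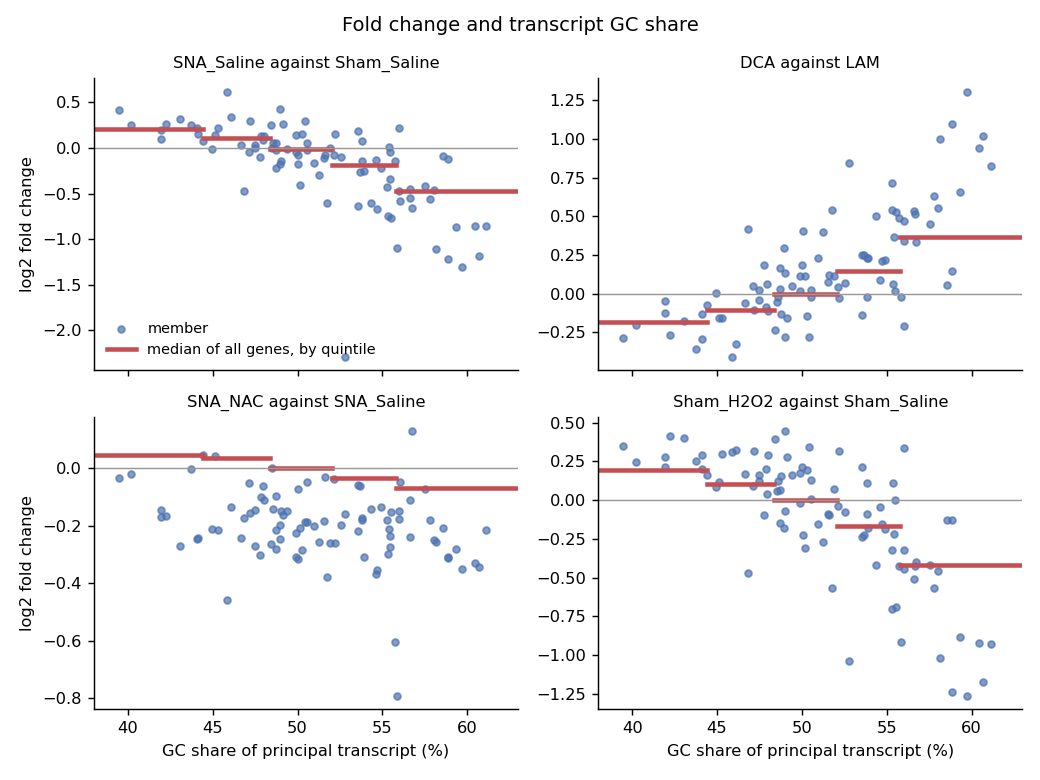
Log2 fold change of the 91 genes (points) against the GC share of the principal transcript in 4 comparisons, with the median of all genes in each quintile of GC share (lines). In SNA_Saline against Sham_Saline the line falls from 0.21 to -0.47, in DCA against LAM it rises from -0.18 to 0.37, and the points follow it.

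The ubiquitous subunits varied most between the libraries of Sham_Saline, with an SD of 0.36 (n = 3) around a mean of 0.03, and the other group means lay between -0.20 and 0.11. Each value is a library's median deviation of the 75 ubiquitous subunits from each gene's mean, in log2 CPM. It was -0.39, 0.22 and 0.25 in Sham_Saline replicates 1 to 3, against 0.01, -0.12 and 0.11 in SNA_Saline. It was 0.01, 0.04 and 0.01 in LAM and 0.12, -0.08 and 0.29 in DCA. In SNA_NAC it was -0.08, -0.24 and -0.30, and in Sham_H2O2 -0.00, -0.01 and 0.09. Once the part predicted from GC share and length was removed, Sham_Saline stood at -0.20, 0.08 and 0.14 and SNA_NAC at -0.06, -0.11 and -0.17. The median SD over the 18 libraries fell from 0.24 to 0.17 over the 91 members, and it became smaller in 80 of them. Over all genes it fell from 0.26 to 0.19 and became smaller in 77.6%. The prediction was fitted to these same libraries and genes, so some fall over all genes was built in.

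**Figure D4:**
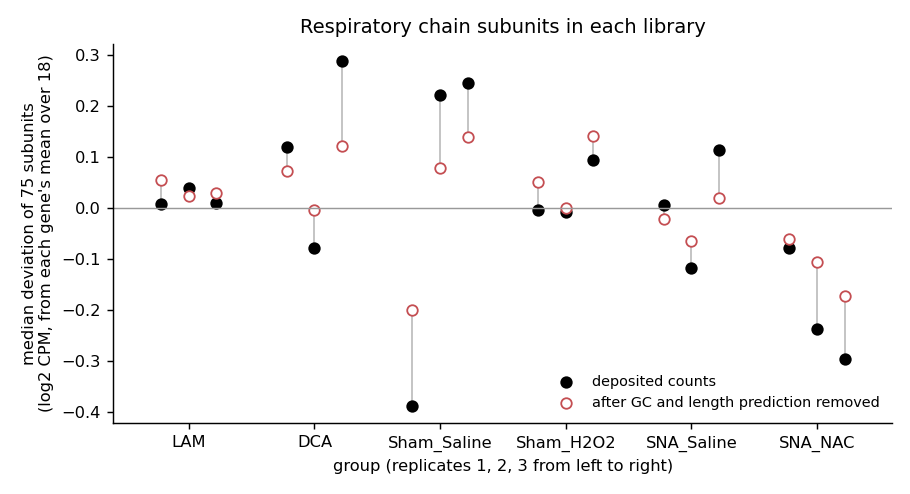
Median deviation of the 75 ubiquitous subunits in each library, in log2 CPM from each gene's mean over 18 libraries, computed from the deposited counts with TMM scaling (filled) and after the value predicted from GC share and length was removed (open). Sham_Saline spans -0.39 to 0.25 before and -0.20 to 0.14 after removal.

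The tissue-restricted isoforms were a minor part of each pair. Cox6a2, Cox7a1 and Cox8b are known as the forms of heart and skeletal muscle. Their median share of the pair's summed FPKM was 0.233% beside Cox6a1, 2.5% beside Cox7a2 and 0.436% beside Cox8a. Cox6a2 was 0.286, 7.12 and 0.136 CPM in Sham_Saline and at or below 2.13 CPM in the other 15 libraries. Cox8b was 4.55 CPM in Sham_Saline replicate 2 and Cox7a1 was 8.59 CPM there, and these were also the highest values of the 18. The sum of the skeletal muscle markers was also highest in that library. Of these markers 14 of 14 were detected in every library, and their sum ranged from 12.7 CPM in Sham_Saline replicate 3 to 1945 CPM in replicate 2. Whether the isoforms followed the markers across the 18 libraries was not tested. All 6 tissue isoforms had lower values in SNA_Saline and in Sham_H2O2, none past the test. Without Sham_Saline replicate 2 the log2 fold change of Cox7a1 was 0.04 in SNA_Saline and 0.56 in Sham_H2O2.

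**Figure D5:**
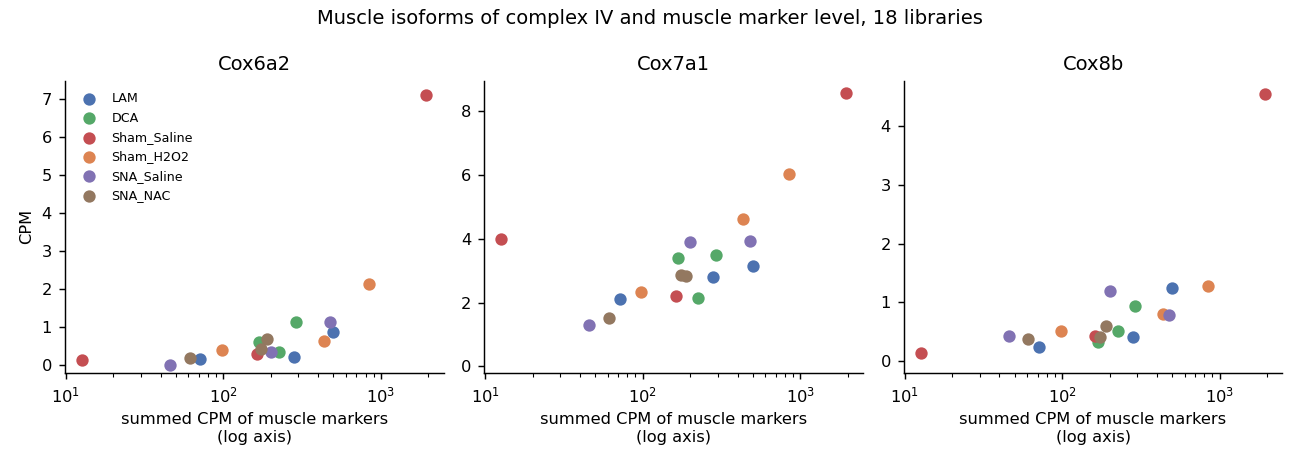
CPM of Cox6a2, Cox7a1 and Cox8b in each of 18 libraries against the summed CPM of 14 skeletal muscle markers (log axis), coloured by group. Sham_Saline replicate 2, at a marker sum of 1945 CPM, is the highest point in each panel.

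Of the 3 genes for the identical c-subunit of the ATP synthase ring, Atp5g3 was the highest on either scale, though the shares depended on the lengths used. By CPM per kilobase of principal transcript the median shares were 90.4% for Atp5g3, 5.59% for Atp5g2 and 3.99% for Atp5g1. By FPKM they were 69.3%, 21.7% and 8.96%, where the implied length was 3.09 times the principal transcript for Atp5g3 and 0.611 times for Atp5g2. The principal transcript of Atp5g1 has 4715 bases, which lowers its level on both scales. On both scales Atp5g3 had its highest share in Sham_H2O2 replicate 3, and the other 2 had theirs in Sham_Saline replicate 2. Atp5l-ps2 is a pseudogene of Atp5l, so its counts may share reads with the parent gene.

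Related gene lists held no called gene in any of the 6 edgeR tests without offsets. The lists held 76 mitochondrial ribosomal genes, 35 further assembly factors, 17 glycolytic genes, 16 genes of the tricarboxylic acid cycle and 13 regulators. They also held 11 genes of mitochondrial DNA and 10 electron carriers, inhibitors and uncouplers. With the GC and length offsets 5 of all these genes passed in SNA_Saline against Sham_Saline, where 7.98% of all genes tested passed. Ppargc1a, a coactivator of mitochondrial biogenesis, fell by 0.33 on the log2 scale (SE 0.08, edgeR adjusted p = 0.012). Mrpl45 and Coa5 also had lower and Mrpl9 higher values past that test. In the difference of the nerve and cord changes 6 genes of the lists passed with the offsets, against 5.73% of all genes. With the replicate block added, 4 of the 5, all but Coa5 (edgeR adjusted p = 0.054), and 4 of the 6 still passed. No share of all genes is given for the fit with the block, so these counts cannot be read as a result about the lists. The 11 messenger RNAs of mitochondrial DNA that were counted here made up 4.52%, 3.71% and 5.51% of counts in Sham_Saline replicates 1 to 3. In Sham_H2O2 they made up 4.86%, 4.40% and 9.13%, so replicates 1 and 2 lay within the range of Sham_Saline. These RNAs had 11 of 11 higher values in SNA_Saline against Sham_Saline, with a median log2 fold change of 0.32. They had 11 of 11 higher values in Sham_H2O2 against Sham_Saline, with 0.50. The groups overlapped for each of the 11 in both comparisons. Their GC share is low, with a median of 37.1%, and with the offsets the first median became 0.06 and the other 0.15. Glycolytic enzymes had 17 of 17 higher values in DCA against LAM, with a median of 0.27 that became 0.14 with the offsets. In SNA_Saline against Sham_Saline 15 of 17 had lower values, with a median of -0.29 that became -0.12. Of 16 genes of the tricarboxylic acid cycle, 8 had higher and 8 lower values in DCA against LAM.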

How the data were processed

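RNA of whole ganglia was sequenced in 18 libraries, 3 per group, from a stranded mRNA kit, per the labels' protocols. Alignment used TopHat2 2.0.12 and counting HTSeq 0.6.0 on mm10, per the submitters' processing notes. The authors deposited raw counts per gene and FPKM values. Whether counting used strand is not given in the sources used here. The counts of 15730 genes were fitted in edgeR 4.0.16 (R 4.3.3) with TMM scaling, filterByExpr and the quasi-likelihood test over all 18 libraries, with p-values adjusted over all genes. The script was tested on simulated data. Totals of 6472476 to 42435331 counts and a common biological coefficient of variation of 17.4% set the precision. P-values measure the spread between libraries of pooled mice.

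GC share and length came from the APPRIS principal transcript of GENCODE M21, with the longest as a second choice added after seeing the data. Ties between principal transcripts went to the better supported, then to the longer coding sequence and then to the longer transcript. Offsets were natural splines with 5 degrees of freedom. DESeq2 1.42.0 was an alternative. Replicate numbers equal the sequencing lanes in the labels, so they pair libraries by lane. The correlation of same-numbered deviations ranged from -0.647 to 0.555 over 24 pairs, with a mean of 0.0832. The members and lists were chosen with earlier results of these data known. Because no member passed, genes were named from those with the largest absolute fold change of their class and a mean count of at least 50. Not every gene so selected is given in each comparison. Ndufaf1, Ndufaf4, Cox5a, Sdha, Atp5b, Ndufa13, Cox6a2, Cox8b Ppargc1a, Mrpl45, Mrpl9, Coa5, and the genes of the level and variation orders were chosen after their values were seen. A gene of the related lists that passed with the offsets is not reported here.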

Additional observations from a re-analysis of the deposited data

How the results depend on the processing

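The counts of called members were 0 for dorsal column injury, for N-acetyl-cysteine and for hydrogen peroxide under each of the 18 alternatives run. In SNA_Saline against Sham_Saline the count was 1 with DESeq2, with GC and length offsets, with the offsets and a replicate block, with offsets from the longest transcript and at an adjusted p of 0.10, and leaving out a library gave 0 to 18. In Sham_Saline against LAM it was 5 with DESeq2 and 0 to 41 with a library left out. In the difference of the nerve and cord changes it was 10 with DESeq2, 3 with offsets, 0 with the offsets and a replicate block, 2 with offsets from the longest transcript, 15 at an adjusted p of 0.10 and 0 to 33 with a library left out. The upper ends are all without Sham_Saline replicate 1, and the cause was not tested. For the counts at an adjusted p of 0.10 no share of all genes is given. The same holds for the counts with a replicate block, with or without offsets, and with offsets from the longest transcript. All these counts therefore cannot be read as a result about the members. The replicate block alone changed no call, with 0 members in each of the 6 tests, and added to the offsets it removed the 3 calls in the difference of changes.

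The members' median stayed between -0.26 and -0.08 in SNA_NAC against SNA_Saline. It ranged from -0.23 to 0.04 in SNA_Saline against Sham_Saline, from -0.00 to 0.15 in DCA against LAM, from -0.20 to 0.10 in Sham_H2O2 against Sham_Saline and from -0.06 to 0.20 in Sham_Saline against LAM.

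Named genes that changed sign, none past the test in the main fit, were these, with offsets, offsets with the block and offsets from the longest transcript in that order. In DCA against LAM, Sdhb became -0.02 and -0.02 with the first 2, and Cox7a1 -0.02, -0.01 and -0.06. In SNA_Saline against Sham_Saline, Cox4i1 became 0.00, 0.01 and 0.00. In Sham_H2O2 against Sham_Saline, Sdhb became 0.07, 0.07 and 0.01, Cox4i1 0.02, 0.02 and 0.02, and Cox7a1 0.17, 0.17 and 0.21. Sdhb became -0.07 and -0.07 in Sham_Saline against LAM, and 0.04 and 0.04 in the difference of changes. Atp5sl became 0.00 with the longest transcript in SNA_NAC against SNA_Saline. With a library left out, that comparison ranged from -0.61 to 0.14 for Ndufs7, -0.61 to 0.11 for Uqcr11 and -0.16 to 0.05 for Atp5sl. Cox7a1 ranged from -1.02 to 0.04 in SNA_Saline against Sham_Saline, and in Sham_H2O2 against Sham_Saline Sdhb ranged from -0.37 to 0.02 and Cox7a1 from -0.54 to 0.56.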

Other observations

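The deposited FPKM values also listed 4 genes that meet the symbol rule and have no row in the count table. Cox8c, a testis form of subunit 8, was listed at 0 in 18 of 18 libraries. Cox7b2 had a mean of 0.303 FPKM and was listed at 0 in 4 libraries. Atp5l2 had a mean of 0.0902 FPKM, and the pseudogene Atp5l-ps1 of 0.0593 FPKM.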
